A study of Mus musculus with 8 samples.

Results

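The cytotoxic effector genes described here were 9 genes chosen by symbol from a mouse RNA-seq count table: Gzma, Gzmb, Gzmk, Gzmm, Prf1, Nkg7, Fasl, Ifng and Srgn. All 9 were among the 24924 genes analysed, and each has a count, 0 included, in all 8 libraries. The libraries came from T cells and microglia sorted out of the brains of C57BL/6 mice by surface markers, all at an age of 20 to 22 months. The groups were T cells of mice given IL-5, T cells of mice given PBS, microglia of mice given IL-5 and microglia of mice given PBS, with 2 libraries in each. IL-5 is a cytokine best known for its action on eosinophils and B cells, and it was injected at 2 µg a day on 2 days. PBS is the saline vehicle. The dosing text is the same for all libraries, so the PBS groups are known as such from the sample titles and treatment labels. No genotype other than the strain is given, and the labels do not state whether libraries were made from single or pooled mice. The p-values below therefore measure the spread between these samples, which may be technical.

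Cytotoxic lymphocytes kill target cells by releasing granules. Perforin opens the target's membrane, granzymes are serine proteases that enter through it and cleave proteins inside, and serglycin is the proteoglycan that packs granzymes in the granule. NKG7 is a membrane protein of these granules that takes part in their release. Fas ligand is a surface protein that triggers death through the receptor Fas, and interferon gamma is a secreted cytokine that activates macrophages and microglia and raises antigen presentation. CD8 T cells with granzymes accumulate in the ageing mouse brain. Among the granzymes, granzyme B is the classical activator of caspases, granzyme A cleaves other substrates, granzyme K is typical of memory CD8 cells, and granzyme M is best known from natural killer (NK) cells. Serglycin is made by most blood cells, neutrophils and mast cells included.

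Gzma and Gzmk are neighbours on chromosome 13, with no other coding gene between them, and the 70626 bases between their annotated spans separate 2 genes whose levels stood in opposite order in the 2 sorted populations. Gzma spans chr13:113093825-113100981 and Gzmk chr13:113171608-113225908, both on the minus strand (GENCODE M21, GRCm38). The 250 bases before the RefSeq start of each gene are shown for that reason, with Gzmb, at chr14:56258838-56262260 on the minus strand, as the granzyme best known for its control by T-box, Runx and AP-1 factors. Capitals mark matches to the T-box core TCACAC, the Runx motif TGTGGT or the AP-1 motif TGANTCA on either strand. The windows are chr13:113100982-113101231 for Gzma, chr13:113180966-113181215 for Gzmk and chr14:56262335-56262584 for Gzmb, all read 5′ to 3′ on the minus strand (RefSeq, GRCm38.p6).
Gzma: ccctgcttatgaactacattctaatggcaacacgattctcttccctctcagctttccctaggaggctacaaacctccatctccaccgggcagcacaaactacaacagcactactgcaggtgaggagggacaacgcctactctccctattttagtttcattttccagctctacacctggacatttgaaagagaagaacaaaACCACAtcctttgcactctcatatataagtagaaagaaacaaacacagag
Gzmk: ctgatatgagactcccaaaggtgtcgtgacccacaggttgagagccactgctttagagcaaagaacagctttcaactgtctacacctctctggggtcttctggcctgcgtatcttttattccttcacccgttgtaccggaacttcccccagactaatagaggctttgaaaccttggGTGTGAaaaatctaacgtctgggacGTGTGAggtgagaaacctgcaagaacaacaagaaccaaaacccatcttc
Gzmb: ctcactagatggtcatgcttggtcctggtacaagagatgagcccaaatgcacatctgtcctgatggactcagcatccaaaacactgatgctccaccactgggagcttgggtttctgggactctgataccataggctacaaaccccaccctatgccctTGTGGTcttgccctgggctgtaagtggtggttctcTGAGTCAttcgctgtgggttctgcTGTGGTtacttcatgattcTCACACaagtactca
The Gzma window held 1 Runx match and neither of the other motifs. The Gzmk window held 2 T-box matches, starting at positions -74 and -49 from the RefSeq start, and no other match. The Gzmb window held 1 T-box match at -15, 2 Runx matches at -93 and -34, and 1 AP-1 match at -58, and none of the matches in the 3 windows overlapped another. Of 32851 RefSeq promoter windows of that length, 12.3% held TCACAC, 14.1% held TGTGGT and 6.75% held TGANTCA on either strand. These are matches of letters and not measured binding sites. The bases just after the RefSeq start were found in the GENCODE M21 transcripts of Gzma, but not in those of Gzmk or Gzmb. The Gzmk window also lies inside the GENCODE span of Gzmk. Positions in the Gzmk and Gzmb windows therefore hold for the RefSeq starts only.

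The gene counts per library ranged from 23536908 to 30423828, and levels are counts per 1000000 gene counts (CPM). At 0 counts a library still allows a level of 3 counts, which is 0.0986 to 0.127 CPM. Such floors and the intervals below hold counting error alone, because reads lacking molecular identifiers may be copies of 1 molecule. The T cell libraries held the 10 T cell markers at a sum of 3317 to 5620 CPM, against 20.2 to 137 CPM in the microglia libraries. Microglia markers summed to 98.8 to 172 CPM in T cells and 12061 to 24175 CPM in microglia. Neither population was free of other transcripts: choroid plexus markers summed to 58788 to 115853 CPM in T cells and 35842 to 63838 CPM in microglia. Neutrophil markers reached 13530 to 17512 CPM in microglia. Microglia IL-5 replicate 1 stood apart from the others, with the fewest genes detected (13172 of a range up to 15330), no Cd8a or Cd8b1 count and the lowest T cell marker sum. It also had the fewest gene counts and the largest share of reads outside genes, 25.5%, against at most 19.8% in any other library.

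The level of each gene per base of its exons put NKG7 first in the T cells. Nkg7 ranged from 3854 to 7589 per-length units over the 4 T cell libraries, where a unit is 1 count per kilobase of exon out of 1000000 such counts. It was followed by Gzmk (463 to 1168), Srgn (538 to 620), Ifng (296 to 443), Fasl (101 to 334), Gzmb (111 to 347), Prf1 (65.2 to 145), Gzma (14.6 to 81.9) and Gzmm (10.4 to 56.3). In this order Nkg7 stood clear of Gzmk, and Srgn stood clear of Ifng. All other neighbours overlapped over the 4 libraries. In microglia Srgn came first, at 628 to 810 units, then Nkg7 (151 to 313) and Gzma (79.3 to 284), whose ranges overlapped. The others in microglia stayed at or below the 37.6 units reached by Gzmb, and Prf1 was at 0 counts in all 4 libraries.

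**Figure D1:**
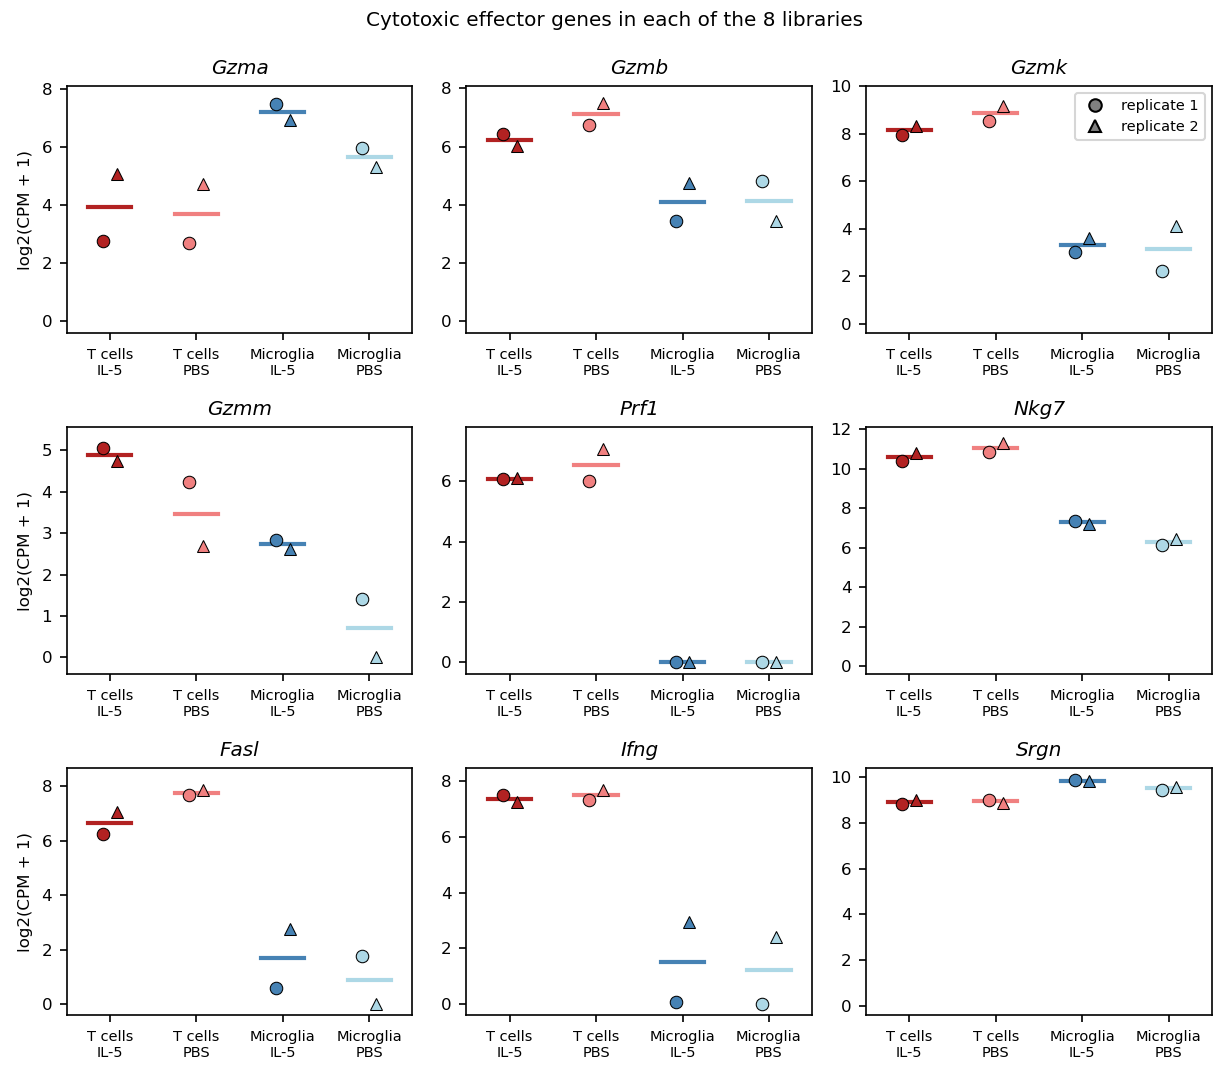
Level of each of the 9 genes in each library, as log2(CPM + 1); circles are replicate 1, triangles replicate 2 and bars the mean of the 2 log values. In all, 6 of the 9 genes lie higher in all 4 T cell libraries than in all 4 microglia libraries, Gzma and Srgn lie lower in them, and the ranges of Gzmm overlap.

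The comparison of T cells with microglia, made within IL-5 mice and within PBS mice, asked which sorted population carried each transcript. Perforin, granzyme K and NKG7 transcripts were higher in T cells in both treatments, and serglycin transcripts were lower. Granzyme A transcripts were lower in T cells than in microglia in IL-5 mice. In IL-5 mice 3 members were called higher and 2 lower in T cells (edgeR quasi-likelihood test, two-sided, adjusted p under 0.05, n = 2 libraries per group), where 2.49% of all 15397 genes tested were called higher and 5.73% lower. In PBS mice 3 members were called higher and 1 lower, where 2.57% of all genes were called higher and 4.6% lower. The median log2 fold change over the 9 members was 2.46 in IL-5 mice and 4.13 in PBS mice, beside 0.19 and 0.056 over all genes tested, and it was the same with Prf1 set to its lower bound. DESeq2 called 4 higher and 2 lower in IL-5 mice, where it called 7.49% of all genes higher and 11.2% lower. In PBS mice it called 5 higher and 2 lower, beside 7.96% and 10.5% of all genes. Scaled by library size alone, the median over all genes moved to 1.01 in IL-5 mice and 0.75 in PBS mice, and the share of all called genes that were higher in T cells was 74.0% and 71.0%, against 30.3% and 35.8% with TMM scaling. In a bulk sample, fewer cells of a type and less RNA per cell cannot be told apart.

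Prf1, which encodes perforin, measured 67.0 and 67.4 CPM in T cells of IL-5 mice and 63.7 and 134 CPM in T cells of PBS mice. It had 0 counts in every microglia library. Set against the floor of 3 counts per microglia library, its mean CPM in T cells was at least 566-fold higher in IL-5 mice. In PBS mice it was at least 947-fold higher. These bounds are ratios of CPM without TMM scaling. TMM scaling lowered fold changes of T cells over microglia, so the bounds would be smaller on the scale of the other members. The TMM-scaled edgeR fit called Prf1 higher in IL-5 mice (adjusted p = 0.00237) and in PBS mice (adjusted p = 0.00161). Both calls held without each library in turn.

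Nkg7 measured 1359 and 1766 CPM in T cells of IL-5 mice and 165 and 146 CPM in microglia of the same treatment (log2 fold change 2.46, SE 0.36, edgeR adjusted p = 0.00504). In PBS mice it measured 1871 and 2491 CPM in T cells and 69.3 and 84.9 CPM in microglia (4.13, SE 0.39, edgeR adjusted p = 0.000587). Every T cell library lay above every microglia library. Both calls held without each library in turn, but in IL-5 mice the adjusted p was 0.083 when only the 4 libraries compared were fitted.

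Gzmk measured 248 and 321 CPM in T cells of IL-5 mice, against 7.05 and 11.2 CPM in microglia (log2 fold change 4.14, SE 0.68, edgeR adjusted p = 0.00809). Without microglia IL-5 replicate 1 it was 3.95 with an adjusted p of 0.0542. In PBS mice Gzmk measured 368 and 582 CPM in T cells and 3.62 and 16.3 CPM in microglia (4.88, SE 0.70, edgeR adjusted p = 0.00401). This value was 4.13 when microglia PBS replicate 1 was left out and 6.23 when replicate 2 was, called in both cases. The lowest T cell value was far above the highest microglia value. Esm1, a gene of the opposite strand within the Gzmk interval, shares no exon base with it in GENCODE M21.

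Gzma, the neighbour of Gzmk, had the opposite order. It measured 5.83 and 33.0 CPM in T cells of IL-5 mice and 178 and 123 CPM in microglia of IL-5 mice (log2 fold change -3.86, SE 0.96, edgeR adjusted p = 0.0392). After PBS, Gzma measured 5.53 and 25.4 CPM in T cells and 61.9 and 39.0 CPM in microglia (-2.40, SE 0.90, edgeR adjusted p = 0.154; DESeq2 adjusted p = 0.0285, where DESeq2 called 10.5% of all genes lower). In edgeR the PBS value was -1.69 when T cells PBS replicate 1 was left out and -3.89 when replicate 2 was. All 4 microglia libraries lay above all 4 T cell libraries, an order that 2 of 9 members had, Gzma and Srgn, and 8.14% of all genes tested. The opposite order, all T cell libraries above, held for 6 members and for 25.9% of all genes. The call in IL-5 mice was a narrow one: it was lost without T cells IL-5 replicate 1 (-3.10, adjusted p = 0.159), microglia IL-5 replicate 1 (-3.38, 0.128), microglia IL-5 replicate 2 (-4.32, 0.0523), microglia PBS replicate 1 (-3.93, 0.0737) and microglia PBS replicate 2 (-3.93, 0.077). It was also lost with library-size scaling (-2.96, adjusted p = 0.0962), with no filter (-3.92, 0.0538) and in a fit of the 4 libraries alone (-3.86, 0.116). Without T cells IL-5 replicate 2 the call held, at -5.54.

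By the ratio of its highest to its lowest CPM, Srgn varied least of the 9 over the 4 T cell libraries. Over the 4 microglia libraries it varied least of the members with counts there, Prf1 being at 0. It measured 455 and 516 CPM in T cells and 924 and 909 CPM in microglia of IL-5 mice (log2 fold change -1.77, SE 0.31, edgeR adjusted p = 0.0106). After PBS, Srgn measured 512 and 474 CPM in T cells and 692 and 769 CPM in microglia (-1.27, SE 0.31, edgeR adjusted p = 0.0379). Both calls were lost with library-size scaling, at -0.92 (adjusted p = 0.0812) and -0.57 (0.249). The call in IL-5 mice was also lost without T cells IL-5 replicate 1 (-1.71, adjusted p = 0.114), without T cells IL-5 replicate 2 (-1.83, 0.0713) and in a fit of the 4 libraries alone (-1.78, 0.127). In PBS mice the call was lost without either PBS microglia library (-1.38 and -1.29), without either PBS T cell library (-1.32 and -1.22) and without either IL-5 T cell library (-1.27 and -1.27), at adjusted p from 0.0765 to 0.226. The neutrophil markers, abundant in the microglia libraries, came to at most 26.96 CPM in T cells. Their part in the Srgn difference was not tested.

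Gzmb, Fasl and Ifng were higher in every T cell library than in every microglia library but were not called. Gzmb measured 85.2 and 63.9 CPM in T cells and 9.77 and 26.2 CPM in microglia of IL-5 mice (log2 fold change 1.29, SE 0.64, edgeR adjusted p = 0.277). In PBS mice it measured 107 and 179 CPM in T cells and 27.1 and 9.98 CPM in microglia (2.25, SE 0.66, edgeR adjusted p = 0.0741). In PBS mice it passed without microglia IL-5 replicate 1 (adjusted p = 0.0467), without microglia IL-5 replicate 2 (0.0452), with no filter (0.0167), with library-size scaling (0.0384) and in DESeq2 (0.012).

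Fasl measured 75.5 and 132 CPM in T cells and 0.51 and 5.80 CPM in microglia of IL-5 mice (log2 fold change 4.33, SE 1.61, edgeR adjusted p = 0.163). In PBS mice it measured 203 and 232 CPM in T cells and 2.40 and 0 CPM in microglia (6.79, SE 1.81, edgeR adjusted p = 0.0648). DESeq2 called it in both treatments (adjusted p = 0.0063 in IL-5 mice and 4.47e-06 in PBS mice), where it called 7.49% and 7.96% of all genes higher. In edgeR it passed in IL-5 mice without microglia PBS replicate 1 or 2 (adjusted p = 0.0255 and 0.0261), and in PBS mice without microglia PBS replicate 1 (0.00643, which leaves a lone microglia library at 0 counts), with library-size scaling (0.0415) and with the filter at 5 CPM (0.0493). In PBS mice it was 5.70 without microglia PBS replicate 2.

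Ifng measured 180 and 153 CPM in T cells and 0.0425 and 6.61 CPM in microglia of IL-5 mice (log2 fold change 4.97, SE 2.08, edgeR adjusted p = 0.213). After PBS, Ifng measured 160.5 and 206 CPM in T cells and 0 and 4.34 CPM in microglia (5.71, SE 2.16, edgeR adjusted p = 0.169). In each treatment 1 microglia library was at 0 or 1 count and the other was not, and the error of the model was large. A gene model still to be tested by experiment on the same strand, Gm49751, shares 336 exon bases with Ifng.

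Gzmm was low throughout. It measured 32.0 and 25.6 CPM in T cells and 6.16 and 5.14 CPM in microglia of IL-5 mice (log2 fold change 1.49, SE 1.81, edgeR adjusted p = 0.691). After PBS, Gzmm measured 17.9 and 5.48 CPM in T cells and 1.68 and 0 CPM in microglia (3.09, SE 1.93, edgeR adjusted p = 0.377). Its T cell and microglia ranges overlapped over the 8 libraries.

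**Figure D2:**
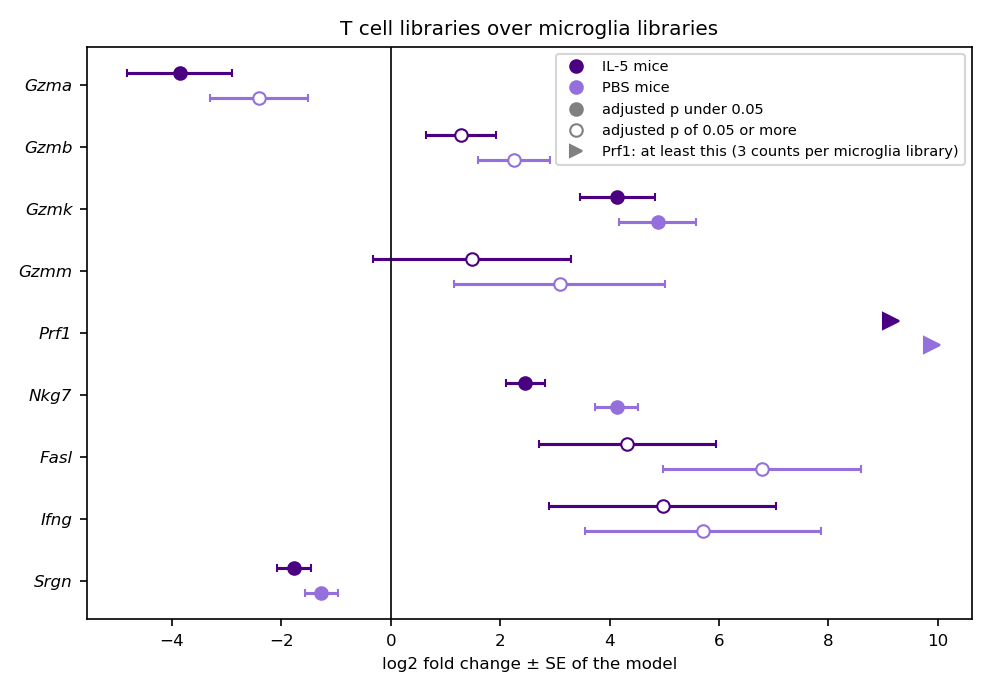
Log2 fold change of T cells over microglia for each gene, in IL-5 mice (dark) and PBS mice (light), with the SE of the edgeR model. Filled points have an adjusted p under 0.05. The Prf1 triangles are lower bounds from CPM without TMM scaling, unlike the points, which are TMM-scaled. Gzmk (4.14 and 4.88) and Nkg7 (2.46 and 4.13) lie right of 0, and Gzma (-3.86 and -2.40) and Srgn (-1.77 and -1.27) left of 0, also with library-size scaling, under which the Gzma and Srgn calls were lost.

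The makeup of the granzyme transcripts differed between the populations. Per base of exon, Gzmk made up 67.3% and 70.6% of the transcripts of the 5 granzymes detected in T cells of IL-5 mice, and 72.7% and 73.2% in T cells of PBS mice. In microglia its share was 2.55% and 4.98% after IL-5 and 3.09% and 19.3% after PBS. Gzma had a share of 1.51% to 10.02% over the T cell libraries and of 63.7% to 88.8% over the microglia libraries. The widest 95% interval of a Gzma share, for microglia PBS replicate 2, ran from 61.5% to 65.8% (Clopper-Pearson). The shares of Gzmk and Gzma thus did not overlap between T cell and microglia libraries, and no test was run on them. Gzmb took 22.4% and 13.6% in T cells of IL-5 mice, against 20.5% and 21.8% in T cells of PBS mice, and 3.42% to 22.4% in microglia.

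Gzmc, the fifth granzyme, lies next to Gzmb and resembles it, so reads may have been split between them. It had 0 and 1.43 CPM in T cells of IL-5 mice, against 6.28 and 0 CPM in T cells of PBS mice, and 5.52 and 9.44 CPM in microglia of IL-5 mice, against 0 and 3.06 CPM in microglia of PBS mice. The other genes of that cluster, Gzmd, Gzme, Gzmf, Gzmg and Gzmn, had 0 counts in all 8 libraries.

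**Figure D3:**
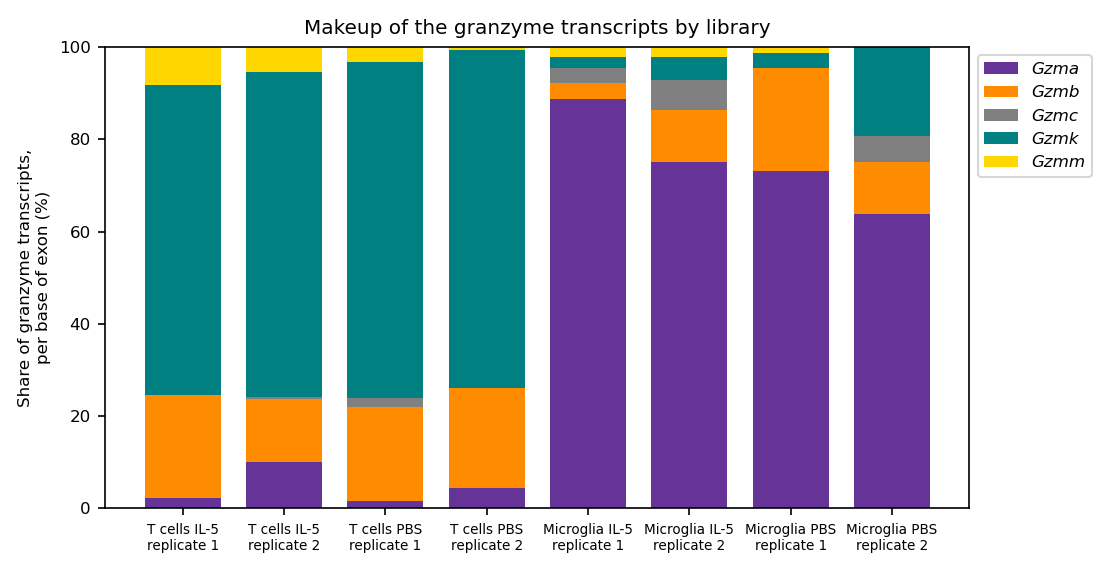
Share of each granzyme in the granzyme transcripts of each library, per base of exon (%), T cell libraries on the left and microglia libraries on the right. Gzmk fills 67.3% to 73.2% of the T cell bars and Gzma 63.7% to 88.8% of the microglia bars.

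The comparison of IL-5 with PBS in T cells asked whether IL-5 changed these transcripts. No member was called in edgeR (0 of 9, beside 0.0% of 13897 genes called in either direction). At an unadjusted p under 0.05, 2 members were lower, Fasl and Gzmk, and 0 higher, where 1.76% of all genes were lower and 2.55% higher. DESeq2 called Fasl lower and no other member, where it called 1.83% of all genes lower and 2.9% higher. The median log2 fold change of the 9 members was -0.43, beside -0.012 over all genes tested. Of the 9, the IL-5 values were both below the PBS values for 4, Gzmb, Gzmk, Nkg7 and Fasl, and both above for 1, Gzmm, and the groups overlapped for the other 4. Over all genes 19.0% had the lower order and 16.6% the higher one.

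Fasl measured 75.5 and 132 CPM in T cells of IL-5 mice, against 203 and 232 CPM in T cells of PBS mice. The higher IL-5 value was below the lower PBS value, with a log2 fold change of -1.02 (SE 0.34, edgeR adjusted p = 0.9999; DESeq2 adjusted p = 0.0274). Over the edgeR alternatives the adjusted p of Fasl ran from 0.325 to 1. Gzmk, whose values are given above, had a log2 fold change of -0.69 (SE 0.28, edgeR adjusted p = 0.9999), and -0.34 without T cells PBS replicate 2. That library held the highest value of Gzmb, Gzmk, Prf1, Nkg7, Fasl and Ifng among the 8.

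Gzmb had a log2 fold change of -0.89 (SE 0.38, edgeR adjusted p = 0.9999), and -0.48 without T cells PBS replicate 2. Nkg7 had one of -0.43 (SE 0.20) and Prf1 one of -0.51 (SE 0.45), both with an edgeR adjusted p of 0.9999. The Prf1 difference lay between 1 PBS library at 134 CPM and the other 3 T cell libraries, at 63.7 to 67.4 CPM. Ifng (-0.089, SE 0.26) and Srgn (0.027, SE 0.18) had changes smaller than their errors. Gzma (0.38, SE 1.26) differed more between the libraries of a group than between the groups. Gzmm had the only positive change with groups apart, 1.34 (SE 0.92, edgeR adjusted p = 0.9999), which became 2.45 when T cells PBS replicate 1 was left out and 0.72 when replicate 2 was.

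T cell marker sums were lower after IL-5. The 10 T cell markers summed to 3317 and 4187 CPM in the IL-5 libraries and 4912 and 5620 CPM in the PBS libraries, and 8 of 10 had a log2 fold change below 0, none of them called. The CD8 chains, Cd8a and Cd8b1, summed to 1248 and 1398 CPM in the IL-5 libraries, below the 1946 and 2130 CPM of the PBS libraries, and both had a negative fold change (median -0.57 on the log2 scale). The 3 CD4 T cell markers summed to 116 and 109 CPM in the IL-5 libraries and 54.1 and 129 CPM in the PBS libraries. Of these 3 markers, 2 had a log2 fold change above 0 and 1 below. Cd40lg, the CD40 ligand, measured 46.1 and 43.6 CPM after IL-5, above the 17.6 and 19.9 CPM after PBS. For Cd4 and Foxp3 the groups overlapped. The mean of Foxp3 was lower in the IL-5 libraries (3.16 CPM) than in the PBS libraries (20.8 CPM), and that of Cd4 was higher (64.4 and 52.0 CPM). Choroid plexus markers summed to 112583 and 115853 CPM in the IL-5 libraries and 83765 and 58788 CPM in the PBS libraries, and 6 of 6 were above 0. NK cell markers summed to 76.3 and 43.7 CPM in the IL-5 libraries and 98.8 and 127 CPM in the PBS libraries, with Klra8 and Klra4 at 0 in both groups. B cell markers summed to 232 and 189 CPM in the IL-5 libraries and 224 and 98.96 CPM in the PBS libraries. The part of CD8 and CD4 T cells, choroid plexus, NK and B cells in the Fasl, Gzmk, Gzmb and Nkg7 differences was not tested.

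Set against the T cell markers of the same library, NKG7 transcripts were nearly level. Nkg7 came to 41.0 and 42.2 CPM per 100 CPM of T cell markers in the IL-5 libraries, against 38.1 and 44.3 in the PBS libraries. The highest of these 4 ratios was 1.16 times the lowest, where the CPM of Nkg7 varied 1.83 times. Gzmk came to 7.47 and 7.66 in the IL-5 libraries and 7.48 and 10.4 in the PBS libraries. Fasl stayed lower in the IL-5 libraries on this scale, at 2.28 and 3.16 against 4.13 and 4.13. Srgn (13.7 and 12.3 against 10.4 and 8.43) and Gzmm (0.96 and 0.61 against 0.36 and 0.097) were higher in the IL-5 libraries on this scale. The CPM of Srgn itself overlapped between the groups. When the edgeR fit itself was scaled to the T cell markers, the median over all genes became 0.43. Nkg7 came to 0.013 and Ifng to 0.39, both with the sign turned. Prf1 came to -0.022, Gzmk to -0.24, Gzmb to -0.39 and Fasl to -0.60. Srgn came to 0.47, near the median of all genes, Gzma to 0.77 and Gzmm to 1.77, and no member was called.

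In the microglia libraries the same ratios were far from those of T cells for some members and close for others. Nkg7 came to 817 and 107 CPM per 100 CPM of T cell markers in microglia of IL-5 mice and 107 and 106 in microglia of PBS mice. Gzma came to 882 and 89.7 in microglia of IL-5 mice and 95.9 and 48.6 in microglia of PBS mice, against at most 0.79 in a T cell library. The 4 microglia ratios of Nkg7, Gzma, Gzmb and Srgn thus all lay above the 4 T cell ratios. For Gzmk, Fasl, Ifng and Gzmm the ratios of the populations overlapped. Prf1 had the opposite order, at 1.30 to 2.39 in the T cell libraries and 0 in the microglia libraries. In microglia IL-5 replicate 1 the T cell markers held only 20.2 CPM, so its ratios rest on a small divisor.

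**Figure D4:**
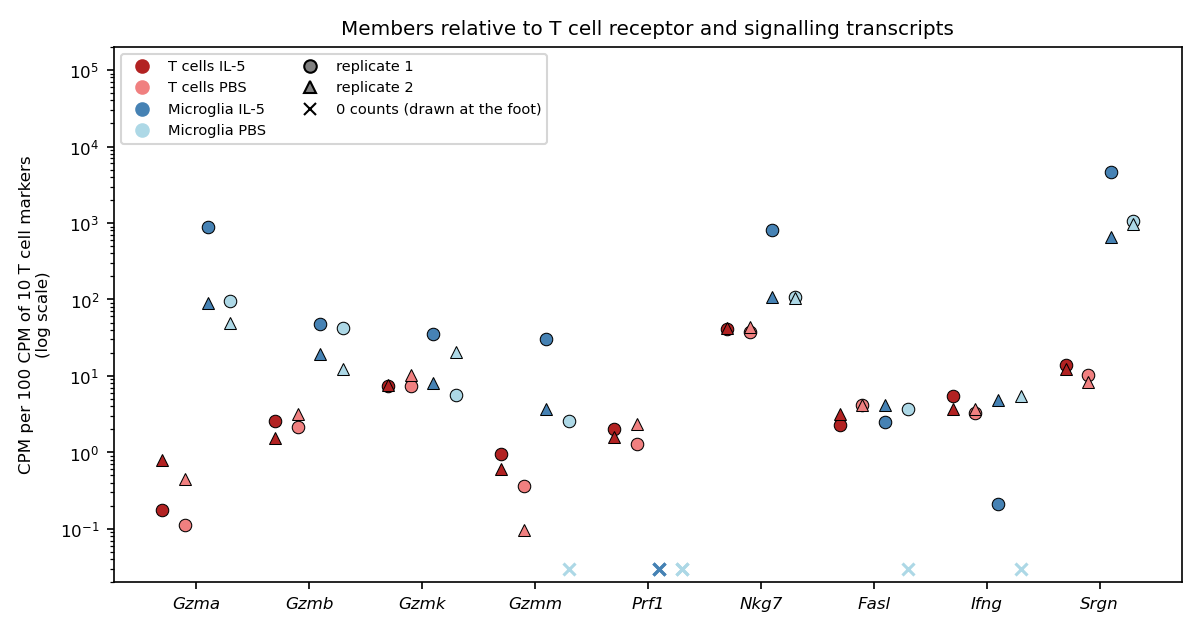
CPM of each gene per 100 CPM of 10 T cell markers in each library, on a log scale; crosses at the foot are libraries with 0 counts. The T cell points of Nkg7 lie between 38.1 and 44.3, below its microglia points, which start at 106, and the Gzmk points of the 2 populations overlap.

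The comparison of IL-5 with PBS in microglia asked the same of the other population. No member was called in edgeR or in DESeq2. That was 0 of the 8 tested, beside 0.0% of 13764 genes in either direction in edgeR, and in DESeq2 0.131% of all genes higher and 0.356% lower. Before adjustment, p was under 0.05 for 2 higher members, Gzma and Nkg7, and 0 lower ones, where 1.79% of all genes were higher and 2.7% lower. The median log2 fold change of the 8 was 0.89, beside -0.023 over all genes tested. For Gzma, Gzmm, Nkg7 and Srgn (4 of 8) the IL-5 values were both above the PBS values, as for 15.0% of all genes. For none were they both below, where 23.1% of all genes had that order. Prf1 was not tested, being at 0 counts.

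Gzma measured 178 and 123 CPM in microglia of IL-5 mice, against 61.9 and 39.0 CPM in microglia of PBS mice. Its log2 fold change was 1.77 (SE 0.49, edgeR adjusted p = 0.964; DESeq2 adjusted p = 0.104). Nkg7 measured 165 and 146 CPM in microglia of IL-5 mice, against 69.3 and 84.9 CPM in microglia of PBS mice (1.19, SE 0.40, edgeR adjusted p = 0.964). The groups of both genes stood apart. Without microglia IL-5 replicate 2 both were called higher, Gzma at 2.16 (adjusted p = 0.018) and Nkg7 at 1.44 (0.0296), in a fit that took the spread of the lone IL-5 library, replicate 1, from the other group and called 3.57% of 14895 genes higher and 4.85% lower. Without microglia IL-5 replicate 1 they were 1.26 (adjusted p = 0.766) and 0.90 (0.795).

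The remaining members in microglia were not called. The change of Srgn was 0.49 on the log2 scale (SE 0.40) and that of Gzmm 2.92 (SE 2.48), where Gzmm had 6.16 and 5.14 CPM in IL-5 mice and 1.68 and 0 CPM in PBS mice. Fasl (1.39, SE 2.74), Ifng (0.59, SE 2.97), Gzmb (0.032, SE 0.82) and Gzmk (0.0042, SE 1.08) had changes below their errors. With library-size scaling Gzmb was -0.045 and Gzmk -0.12.

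Marker sums of other cells in the microglia libraries went several ways. T cell markers summed to 20.2 and 137 CPM in the IL-5 libraries and 64.6 and 80.3 CPM in the PBS libraries, and 6 of 10 had a log2 fold change above 0. The CD8 chains summed to 0 and 47.3 CPM in the IL-5 libraries and 12.1 and 23.3 CPM in the PBS libraries. The library with the highest Gzma, microglia IL-5 replicate 1, had the lowest T cell marker sum. NK cell markers summed to 8.62 and 51.0 CPM in the IL-5 libraries and 13.8 and 12.8 CPM in the PBS libraries. All 5 NK cell markers tested had a log2 fold change above 0, none of them called. Klra4 was at 0 in all 8 libraries and Ncr1 at 0 in microglia IL-5 replicate 1. B cell markers summed to 260.4 and 291 CPM in the IL-5 libraries and 117 and 176 CPM in the PBS libraries, with 5 of 5 above 0. Mast cell and basophil markers summed to 22.3 and 75.6 CPM in the IL-5 libraries and 59.6 and 83.2 CPM in the PBS libraries. Microglia markers summed to 12061 and 18464 CPM in the IL-5 libraries, below the 24175 and 23105 CPM of the PBS libraries, and choroid plexus markers to 59958 and 63838 CPM, above 43145 and 35842 CPM. The part of T, NK, B or choroid plexus cells in the Gzma and Nkg7 values was not tested.

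**Figure D5:**
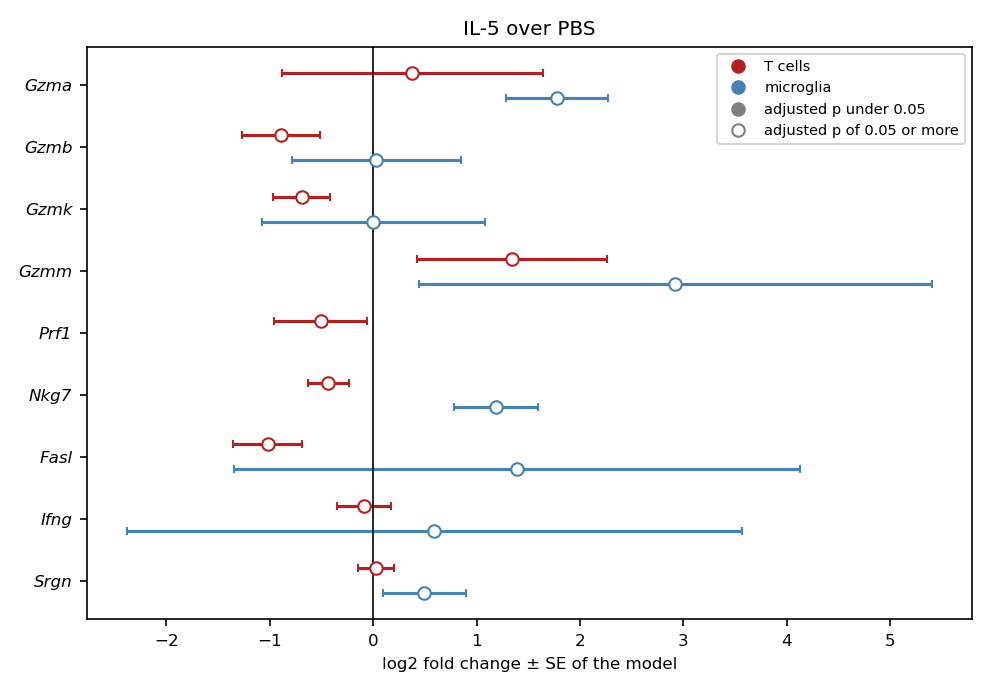
Log2 fold change of IL-5 over PBS for each gene in T cells (red) and in microglia (blue), with the SE of the edgeR model; every point is open because no adjusted p was under 0.05, and Prf1 was not tested in microglia. The widest errors are those of Ifng, Fasl and Gzmm in microglia (SE 2.97, 2.74 and 2.48), genes at 6.61 CPM or less there.

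The responses were then set against each other in 1 fit of all 8 libraries. No member was called (0 of 8 in edgeR and 0 of 8 in DESeq2, beside 0.0% of 15397 genes in either direction in edgeR, and 0.857% higher and 0.357% lower in DESeq2). At an unadjusted p under 0.05, 1 member was lower, Nkg7, where 1.96% of all genes were lower and 3.22% higher. The response of Nkg7 in T cells minus that in microglia was -1.66 on the log2 scale (SE 0.48, edgeR adjusted p = 0.904; DESeq2 adjusted p = 0.0747). Without microglia IL-5 replicate 2 it was -1.93 and was called, in a fit that lends the lone library of that group, replicate 1, the spread of the other groups (adjusted p = 0.039, where 1.07% of genes were called higher and 0.326% lower). Gzma had a difference of -1.46 (SE 1.21), which became 0.038 without T cells PBS replicate 2. The median over the 8 members was -1.21, beside 0.032 over all genes tested, and the 8 fitted values lay below 0.

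Of the 85 genes of 6 lists around these effectors, 78 were tested for IL-5 in T cells and 74 in microglia, and edgeR called none in either. With no adjustment, p was under 0.05 for 2 higher and 10 lower genes of the 78 in T cells (all genes 2.55% and 1.76%), and for 2 higher and 1 lower of the 74 in microglia (all genes 1.79% and 2.7%). DESeq2 called 2 higher and 6 lower in T cells, beside 2.9% and 1.83% of all genes, and none in microglia, beside 0.131% and 0.356%. T cells against microglia gave 12 called higher and 9 lower of 79 in IL-5 mice, beside 2.49% and 5.73% of all genes, and 13 higher and 10 lower in PBS mice, beside 2.57% and 4.6%. The genes named below are from the 3 most abundant of each list in T cells, and any others were chosen after their values were seen.

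The interferon gamma list, receptor chains, signalling proteins and induced genes, had the most members with a low p. In T cells 16 of its 17 tested genes had a log2 fold change below 0 after IL-5, with a median of -0.61, and 7 of them had an unadjusted p under 0.05. Over all genes tested 49.2% lay above 0, the median was -0.012, and 1.76% were lower at that p. Ifng itself differed by less than the spread between its replicates. DESeq2 called Irgm1, Iigp1 and Cd274 lower, among others. The log2 fold change of Jak1, a kinase of the receptor, was -0.55 (SE 0.22), and that of Ifngr1, the ligand-binding chain, was -0.080 (SE 0.19). Ifngr2, the second receptor chain, went the other way. It measured 15.0 and 19.0 CPM in T cells of IL-5 mice and 4.58 and 1.63 CPM in T cells of PBS mice. In the fit scaled to the T cell markers Jak1 was at -0.067 and Ifngr1 at 0.38, where the median over all genes was 0.43. In microglia 13 of 18 were below 0, with a median of -0.38, where 49% of all genes tested lay above 0.

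In T cells against microglia, 6 genes of the interferon gamma list were called higher and 1 lower in each treatment. Ifngr2, the other receptor chain, was the lower one. Jak1 was among the higher ones (log2 fold change 2.69, SE 0.62, edgeR adjusted p = 0.0311 in IL-5 mice).

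Of 18 genes of granule biogenesis and release, 17 were tested, 9 below and 8 above 0 after IL-5 in T cells. Cd63, a membrane protein of lysosomes and secretory granules, measured 636 and 821 CPM in T cells of IL-5 mice and 445 and 374 CPM in T cells of PBS mice (log2 fold change 0.88, SE 0.21, edgeR adjusted p = 0.9999; DESeq2 adjusted p = 0.000437). DESeq2 called Lamp2, another lysosomal membrane protein, higher as well. Ctsw, a cathepsin of cytotoxic cells, had a log2 fold change of -0.48 (SE 0.19, edgeR adjusted p = 0.9999), with 537 and 581 CPM in IL-5 mice and 703 and 914 CPM in PBS mice. Scaled to the T cell markers, the change was -0.024 for Ctsw and 1.305 for Cd63, beside a median of 0.43 over all genes. Lgals1, which encodes galectin-1, had one of 0.042 (SE 0.25). Against microglia of IL-5 mice, Cd63, Ctsl and Vamp8 were called lower in T cells, and in PBS mice Ctsc, Lamp1 and Lamp2 as well. Ctsc, the protease that activates granzymes, and the others are also general lysosomal or vesicle genes.

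Of 16 targets and inhibitors of the granzyme and death receptor routes, 9 were below and 7 above 0 after IL-5 in T cells, and DESeq2 called 1 lower, the death ligand Tnfsf10. Bcl2, an inhibitor of mitochondrial apoptosis, had a log2 fold change of -0.57 (SE 0.24), Bax, its pro-apoptotic relative, one of -0.31 (SE 0.25), and Serpinb9, an inhibitor of granzyme B in mouse cells, one of -0.61 (SE 0.52), each with an edgeR adjusted p of 0.9999. Scaled to the T cell markers, Bcl2 and Serpinb9 were both at -0.15 and Bax turned to 0.14. Bcl2 was higher in T cells than in microglia in both treatments (3.60, SE 0.47, edgeR adjusted p = 0.00296 in IL-5 mice), and Bax was lower in IL-5 mice (-2.54, SE 0.51, edgeR adjusted p = 0.0181).

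Among 11 other effector cytokines and chemokines, 6 were below and 5 above 0 after IL-5 in T cells. Ccl5, a chemokine stored by cytotoxic cells, measured 1961 and 1964 CPM in T cells of IL-5 mice and 2129 and 3196 CPM in T cells of PBS mice (log2 fold change -0.39, SE 0.20, edgeR adjusted p = 0.9999). In microglia it measured 154 and 237 CPM after IL-5 and 85.0 and 113 CPM after PBS (1.11, SE 0.39, edgeR adjusted p = 0.964). Ltb, a membrane-bound lymphotoxin chain, was at -0.28 on the log2 scale (SE 0.18, not called) in T cells, and Xcl1, a chemokine of CD8 and NK cells, one of -0.42 (SE 0.22). Against microglia of IL-5 mice, Ccl5 and Xcl1 were called higher in T cells, and Ccl3, Ccl4 and Tnf lower.

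Of 16 transcription factors of effector lymphocytes, 10 were below and 6 above 0 after IL-5 in T cells. DESeq2 called Runx3 lower. Id2 (-0.39, SE 0.17), Id3 (-0.024, SE 0.38) and Hopx (-0.27, SE 0.19) were the most abundant, each with an edgeR adjusted p of 0.9999. Against microglia, 3 were called higher and 1 lower in T cells in each treatment. In both treatments Stat4, which acts downstream of interleukin-12, and Bhlhe40 were among the higher ones and Klf2 was the lower one. Eomes was the other higher one in IL-5 mice and Tbx21 in PBS mice, both T-box factors of cytotoxic lymphocytes.

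The genes whose profile over the 8 libraries was most like that of a member were found by the root mean square difference of centred log2(CPM + 0.5) profiles, among 11461 genes at a mean of 5 CPM or more. For Nkg7 they were Ccl5 (0.23), Tbc1d10c (0.27) and Ifi203 (0.31), and for Gzmk Il2rb (0.46), Thy1 (0.48) and Lat (0.50). For Fasl the closest was Ptpn22 (0.25), for Ifng Cd27 (0.35), for Prf1 Gprin3 (0.38), for Gzmm Micall1 (0.47), for Gzmb Dido1 (0.12), for Gzma Eid2 (0.55) and for Srgn H3f3a (0.095). The closest pair of members was Nkg7 and Gzmk, at 0.86. That search covered only the other members and not 11461 genes, so its distance cannot be compared with those above. The 8 libraries share their cell type in sets of 4, so most of each profile is the step between T cells and microglia.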

How the data were processed

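RNA of 8 libraries was sequenced with single-end reads of 75 bases. STAR 2.5.3a, Cufflinks 2.0, DESeq2 1.1, FastQC 1.0.0 and bcl2fastq 2.20.0.422 appear in the submitters' processing notes, as do the builds GRCm38 and mm10. The counting tool, its strand setting and its treatment of reads with several matches are not given in the sources used here. The authors deposited counts of reads for each gene, as unscaled whole numbers.

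The 2 summary entries were kept out of library sizes and tests: ambiguous reads, 1.39% to 1.77% of a column, and reads outside genes, 15.2% to 25.5%. Also left out were 27 genes with cells that are not numbers. Tests used edgeR 4.0.16 (glmQLFit with robust dispersion and glmQLFTest, TMM, filterByExpr with a minimum count of 10) in R 4.3.3, two-sided, with Benjamini-Hochberg adjustment over all genes tested and a threshold of 0.05. IL-5 and PBS were compared in a fit of 1 cell type, and T cells and microglia, like the difference of responses, in a fit of all 8 libraries. The SE is the log2 fold change over the root of its F statistic. Alternatives were DESeq2 1.42.0, RLE size factors, library-size scaling, scaling to T cell markers, no filter, a filter at 5 CPM, the replicate number as a block, other sets of libraries in the fit, and leaving out each library. An exact permutation of 2 against 2 has 6 assignments and cannot reach the threshold. The edgeR steps were tested on simulated data. Exon lengths came from GENCODE M21, which matched 97.9% of symbols to 1 gene, and promoters from RefSeq, which matched all 9 members.

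The members and gene lists were chosen with earlier results of these data known. Named genes are the 9 members, up to 3 of each list with the highest mean in T cells, up to 3 of each list past the threshold in an IL-5 comparison, and the 3 closest profiles of each member. Other list genes were named after their values were seen. A gene that the rule names is not reported here. Figures were drawn with matplotlib 3.10.9 in Python 3.11.15.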

Additional observations from a re-analysis of the deposited data

Results flagged for a closer look

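The response of Nkg7, the granule membrane protein of cytotoxic cells, to IL-5 differed between T cells and microglia by -1.66 on the log2 scale (T cells minus microglia, SE 0.48, adjusted p = 0.904 in the edgeR test of the interaction). Both T cell libraries of IL-5 mice lay below both of PBS mice, and both microglia libraries of IL-5 mice lay above both of PBS mice. The difference did not pass the adjustment over all genes in edgeR or in DESeq2 (adjusted p = 0.0747). Over the edgeR alternatives its adjusted p ran from 0.039, without microglia IL-5 replicate 2, to 1. The lowest of these rests on 1 IL-5 microglia library, which stood apart from the others and was assumed to vary like the other groups. The sum of T cell markers was lower in the T cell libraries of IL-5 mice. In the edgeR fit of T cells scaled to these markers, Nkg7 had a change of 0.013. The median over all 13897 genes tested in that fit was 0.43, so Nkg7 stayed below it.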

How the results depend on the processing

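With 2 libraries in a group, counts of called genes moved with the tool and with single libraries. For IL-5 in T cells, 0 genes were called by edgeR, 658 by DESeq2, 2 with no filter, 2 in a fit of all 8 libraries and 0 to 1 with a library left out. Of the members DESeq2 called 1 and edgeR 0 with every library left out in turn. For IL-5 in microglia, 0 genes were called by edgeR, 67 by DESeq2 and 0 to 1255 with a library left out, the highest without microglia IL-5 replicate 2, with 0 to 2 members. For the difference of responses these counts were 0 by edgeR, 187 by DESeq2, 31 with no filter and 0 to 232 with a library left out, the highest again without microglia IL-5 replicate 2, with 0 to 1 members.

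For T cells against microglia in IL-5 mice, 1266 genes were called, against 2871 in DESeq2, 217 in a fit of the 4 libraries compared and 385 (without T cells IL-5 replicate 1) to 2209 (without microglia IL-5 replicate 2) with a library left out. Of the members 5 were called, against 3 with library-size scaling, 2 in the fit of 4 libraries and 3 to 5 with a library left out, 3 being without microglia IL-5 replicate 1 or T cells IL-5 replicate 1. In PBS mice, 1105 genes were called, against 2849 in DESeq2, 1722 with no filter, 1666 in the fit of 4 libraries and 508 (without microglia PBS replicate 1) to 2028 (without microglia IL-5 replicate 2) with a library left out. DESeq2 called 7 members there, against 4, and 3 to 5 were called with a library left out.

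The replicate block changed the counts to 703 genes in IL-5 mice and 567 in PBS mice, with 4 members higher and 1 lower in each. Under it Srgn was no longer called (adjusted p = 0.0561 in IL-5 mice and 0.147 in PBS mice), while Ifng was called in both (0.00182 and 0.00213) and Gzma also in PBS mice (-4.31, 0.00877). The block called 0 genes in both IL-5 comparisons and turned Gzmm to -0.11 for T cells against microglia in IL-5 mice. Deviations of libraries with the same number correlated by only 0.0097 to 0.04, so the numbers were not read as pairs.

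Signs turned for fold changes that had not been called. Scaling to the T cell markers gave, for IL-5 in T cells, Nkg7 0.013, Ifng 0.39, Bax 0.14, Ccl5 0.081, Ltb 0.17, Xcl1 0.031, Id2 0.057, Id3 0.48, Hopx 0.18 and Ifngr1 0.38. That scaling raised all genes together, and their median went from -0.012 to 0.43. Library-size scaling gave Srgn -0.019 and Lgals1 -0.0022 in T cells, and Gzmb -0.045 and Gzmk -0.12 in microglia. Under it the median over all genes was -0.059 in T cells and -0.15 in microglia. With a library left out, log2 fold changes for IL-5 in T cells ran from -1.35 to 1.84 for Gzma, -0.94 to 0.11 for Prf1, -0.25 to 0.088 for Ifng, -0.060 to 0.098 for Srgn, -9.42 to 7.31 for Gzmc, -0.30 to 0.31 for Lgals1, -1.14 to 0.25 for Serpinb9, -0.69 to 0.42 for Id3 and -0.21 to 0.031 for Ifngr1. In microglia they ran from -0.59 to 0.93 for Gzmb, -0.71 to 1.45 for Gzmk, -0.90 to 9.30 for Fasl and -5.21 to 9.39 for Ifng, and in the difference of responses from -3.13 to 0.038 for Gzma and -10.03 to 5.07 for Ifng. The cause of the shifts with a library left out was not tested. Fasl, Ifng, Gzmm and Gzmc each had 0 counts in a PBS microglia library, where depth allows a level of up to 0.110 CPM. Gzmc also had 0 counts in T cells IL-5 replicate 1 and T cells PBS replicate 2.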
